A study of Mus musculus with 4 samples.

Results

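The nuclei described here are the somatotropes of the libraries labelled 22-month males and 22-month females, 2 of the 4 libraries of a single-nucleus RNA survey of the mouse pituitary. A barcode counted as a somatotrope when it had at least 500 detected genes and under 5% mitochondrial UMIs (unique molecular identifiers, 1 per captured transcript). It also needed at least 1 UMI of Ghrhr or Pappa2, a UMI in at least 3 of 9 genes (Ghrhr, Pappa2, Pappa, Corin, Dnah9, Mmp27, Mmp8, Wscd2 and Sdk2), and more Gh than Prl UMIs. The rule found 1477 somatotropes in the library labelled 22-month males and 1120 in the library labelled 22-month females, 2597 of the 20196 nuclei of these libraries and of 35615 nuclei in all. The same rule found 1671 nuclei in the library labelled 5-month males and 1387 in the library labelled 5-month females, 3058 together, and these served for comparison. Each library pooled 3 pituitaries of wild-type UM-HET3 mice, a genetically heterogeneous stock, frozen before nuclei were released. There was 1 library per labelled age and sex, so individual mice cannot be told apart within a pool.

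The sex chromosomes did not follow the labels. In the somatotropes of the labelled 22-month male and female libraries, Xist, the RNA that coats the inactive X, reached 2207 and 1732 counts per 1000000 UMIs (CPM), against 0.102 and 0.0965 CPM in those labelled 5-month males and females. The Y-linked gene Eif2s3y was at 0 and 0 CPM in the libraries labelled 22-month, against 191 and 173 CPM in those labelled 5-month. Both libraries labelled 22-month therefore carried the transcripts of female nuclei and both labelled 5-month those of male nuclei, against the sex label of 1 library at each age. Every difference between the labelled ages below cannot be told apart from a difference between the sexes, and groups are named only as labelled. Somatotropes labelled 22-month or 5-month are those of the libraries so labelled. Somatotropes held 10365798 and 8751038 UMIs in the labelled 22-month male and female libraries, against 9819019 and 10361318 in those labelled 5-month. The whole libraries held 33328821 to 65773807 UMIs, and from 14 to 43 barcodes occurred in both of any 2 libraries.

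Somatotropes are the growth hormone cells of the anterior pituitary. Hypothalamic growth hormone-releasing hormone acts on their receptor Ghrhr, a Gs-coupled receptor that raises cyclic AMP and opens calcium entry, while somatostatin acts on Sstr receptors to hold secretion back. They share a POU1F1-dependent lineage with lactotropes, the prolactin cells, and with thyrotropes, and they respond to glucocorticoids, thyroid hormone, sex steroids and insulin-like growth factor 1.

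Among the genes of the rule, Gh, the hormone itself, averaged 120894 and 100007 CPM in somatotropes labelled 22-month males and females, against 199477 and 124091 CPM in those labelled 5-month males and females. Per nucleus, the median was 709 and 638 Gh UMIs in the libraries labelled 22-month, against 990 and 731 in those labelled 5-month. As a share of the nucleus's UMIs, Gh had a median of 12.5% and 9.82% in the libraries labelled 22-month, against 19.8% and 12.7% in those labelled 5-month. The labelled 22-month values were the lower ones in each of these measures. The higher of them lay close to the lower labelled 5-month value: 120894 and 124091 CPM, 709 and 731 UMIs, and 12.5% and 12.7%. Endothelial nuclei, which make no growth hormone, held 35049 and 28813 CPM of Gh in the libraries labelled 22-month. In those labelled 5-month they held 80206 and 56896 CPM, so their Gh was lower in the libraries labelled 22-month too. Droplets with several nuclei were not left out of them. The part of free RNA or of such droplets in the somatotropes' values, and in their difference, was not tested. Prl ran the other way, with median counts of 206 and 88.5 UMIs per somatotrope in the libraries labelled 22-month, against 28 and 16 UMIs in those labelled 5-month. Every somatotrope had a Prl UMI. Endothelial nuclei, which make no prolactin, held 75202 and 50321 CPM of Prl in the libraries labelled 22-month. In those labelled 5-month they held 16095 and 10436 CPM of it. Somatotropes held less than endothelial nuclei in each library. They had 39995 and 19728 CPM in the libraries labelled 22-month, against 8411 and 5305 CPM in those labelled 5-month. The part of free RNA in the somatotropes' Prl UMIs was not tested. The rule also keeps Prl below Gh in every somatotrope. How much Prl somatotropes themselves express was not tested.

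**Figure D1:**
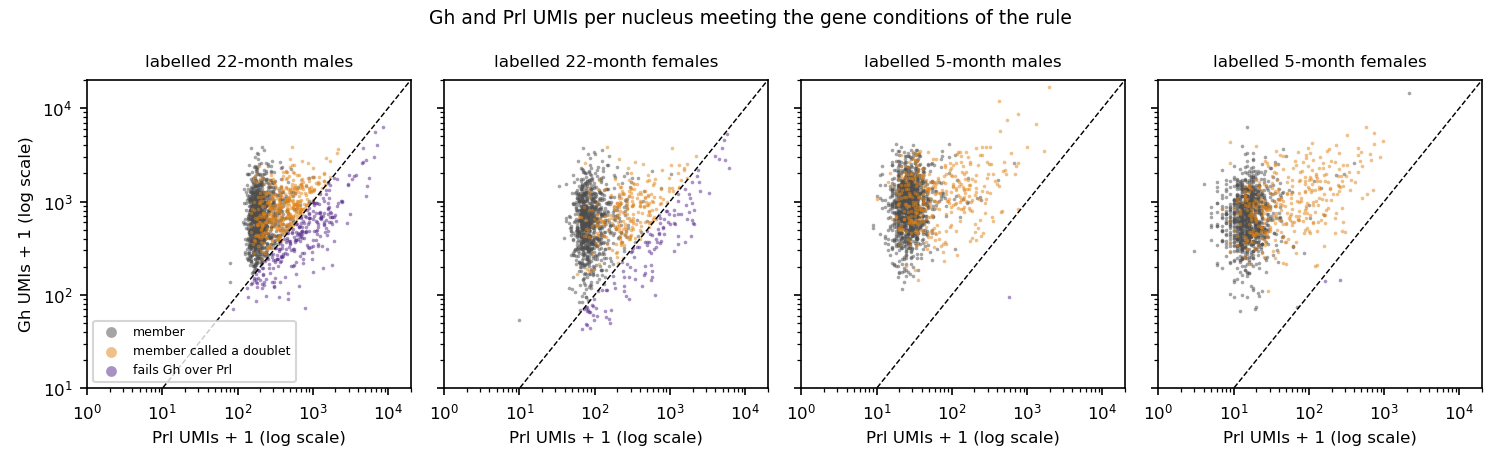
Gh UMIs (vertical) against Prl UMIs (horizontal), both plus 1 on log scales, for each barcode that met the gene conditions of the rule, 1 panel per library as labelled. Grey points are somatotropes, orange ones somatotropes called doublets and purple ones barcodes that failed the Gh over Prl condition below the dashed line of equality; those number 255 and 124 in the libraries labelled 22-month, against 1 and 2 in those labelled 5-month.

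The receptor Ghrhr had a UMI in 76.0% and 74.6% of somatotropes in the labelled 22-month male and female libraries, against 79.7% and 77.0% in those labelled 5-month. Among endothelial nuclei of the libraries labelled 22-month 6.71% and 3.02% had a Ghrhr UMI, at median depths of 2615 and 3035 UMIs against 5465 and 6086.5 UMIs in somatotropes. Pappa2, a metalloprotease that cleaves IGF-binding proteins, stood at 275 and 341 CPM in somatotropes labelled 22-month, against 289.9 and 187 CPM in those labelled 5-month, and its groups overlapped. Dnah9, an axonemal dynein heavy chain, reached 307 and 430.2 CPM in the libraries labelled 22-month, against 170.1 and 246 CPM in those labelled 5-month. Corin, a serine protease known for activating natriuretic peptide, was at 4.82 and 15.5 CPM in somatotropes labelled 22-month, against 32.8 and 38.3 CPM in those labelled 5-month. It had a UMI in 2.51% and 5.89% of somatotropes labelled 22-month, against 14.5% and 18.2% of those labelled 5-month, and lactotropes of the libraries labelled 22-month had one in 0.212% and 0.187%. Wscd2 was at 17.1 and 21.7 CPM in the libraries labelled 22-month, against 43.9 and 23.9 CPM in those labelled 5-month. Pappa, Mmp27, Mmp8 and Sdk2 stayed between 41.8 and 113 CPM in the libraries labelled 22-month and between 47.3 and 104 CPM in those labelled 5-month. These values are a description, since the rule used these genes.

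The 250 bases before the annotated start of 3 of the rule's genes and of Crhbp, the named gene with the largest labelled age difference below, are shown because they hold letters of the motif that POU1F1 is known to bind. The motif searched was ATGNATA on either strand, and capitals mark each match, with overlapping matches merged. The sequences are from RefSeq's promoters on GRCm38.p6, each 5′ to 3′ on its gene's strand, at chr13:27057320-27057569 (plus strand) for Prl, chr1:158958176-158958425 (minus) for Pappa2, chr11:66168552-66168801 (minus) for Dnah9 and chr13:95444832-95445081 (minus) for Crhbp.
Prl: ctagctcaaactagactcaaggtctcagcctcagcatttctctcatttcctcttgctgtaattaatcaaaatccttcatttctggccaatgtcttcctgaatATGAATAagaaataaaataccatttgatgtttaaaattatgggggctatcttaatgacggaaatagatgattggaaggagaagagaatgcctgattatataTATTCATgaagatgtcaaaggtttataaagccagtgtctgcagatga
Pappa2: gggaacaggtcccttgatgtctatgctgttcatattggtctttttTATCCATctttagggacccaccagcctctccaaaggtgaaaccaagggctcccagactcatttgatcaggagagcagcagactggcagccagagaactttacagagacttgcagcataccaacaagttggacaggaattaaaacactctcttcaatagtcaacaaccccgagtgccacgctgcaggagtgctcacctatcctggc
Dnah9: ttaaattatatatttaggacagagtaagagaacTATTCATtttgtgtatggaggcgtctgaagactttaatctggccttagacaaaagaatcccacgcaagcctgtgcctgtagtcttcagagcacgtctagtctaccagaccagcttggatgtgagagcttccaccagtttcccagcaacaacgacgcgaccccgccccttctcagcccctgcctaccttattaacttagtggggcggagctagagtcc
Crhbp: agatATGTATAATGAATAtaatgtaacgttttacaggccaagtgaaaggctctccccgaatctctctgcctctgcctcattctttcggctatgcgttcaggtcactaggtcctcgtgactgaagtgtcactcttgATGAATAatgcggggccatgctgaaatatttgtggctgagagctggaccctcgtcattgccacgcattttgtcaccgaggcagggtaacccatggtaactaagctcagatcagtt
Of the 11 genes of the rule, 7 had an entry and 3 held a match, and of the 15 genes named for the labelled age difference 12 had an entry and 1 held a match. Among all 32851 windows, 7.92% held one. Starts differ between annotations: in GENCODE M21, from which gene positions are given below, Prl and Dnah9 start at the same base, Crhbp starts 93 bases upstream of the RefSeq start and Pappa2 22315 bases upstream, so the Pappa2 window lies inside the GENCODE gene. A match describes the letters only.

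The rule took 12.2% of nuclei (exact 95% interval 11.7 to 12.8) in the library labelled 22-month males and 13.8% (13 to 14.5) in that labelled 22-month females. It took 20.9% (20 to 21.8) and 18.7% (17.8 to 19.6) in those labelled 5-month males and females. Without the condition on Gh over Prl the shares were 14.4% and 15.3% in the libraries labelled 22-month, against 20.9% and 18.7% in those labelled 5-month, and only the first pair moved with that condition. With every nucleus thinned to 2000 UMIs, fewer nuclei showed 3 of the 9 genes, and the shares were 4.35% and 4.80% in the libraries labelled 22-month, against 7.40% and 6.13% in those labelled 5-month. Thinning left out 773 and 396 shallower nuclei of the libraries labelled 22-month, against 744 and 747 of those labelled 5-month (males before females in each). The libraries labelled 22-month were lower under each of these definitions. Lactotropes, defined by more Prl than Gh UMIs, no Ghrhr or Pappa2 UMI and at least 2 of 8 lactotrope genes (Drd2, Agtr1a, Syndig1, Angpt1, Edil3, Hepacam2, Impg1 and Six6), numbered 6123 and 4271 in the libraries labelled 22-month, against 794 and 602 in those labelled 5-month. Endothelial nuclei held 75202 and 50321 CPM of Prl in the libraries labelled 22-month, above their 35049 and 28813 CPM of Gh. In those labelled 5-month they held 16095 and 10436 CPM of Prl, below their 80206 and 56896 CPM of Gh. The part of this background in the numbers of lactotropes was not tested. A share of nuclei is relative, so fewer somatotropes and more of another class give the same value. The intervals cover counting error only.

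At the edges of the rule, 547 and 365 somatotropes of the libraries labelled 22-month had exactly 3 of the 9 genes, with median depths of 4747 and 5031 UMIs. Just outside, 362 and 233 nuclei had 2 of the 9 genes, with median depths of 3982 and 4209 UMIs and median Gh counts of 594 and 463, against 641 and 555 just inside. On the hormone condition, 78 and 23 somatotropes had Gh within 1.2 times their Prl count, and 54 and 26 barcodes lay as near on the other side. Inside, the medians were 436 and 474 Gh UMIs with 371.5 and 419 Prl UMIs, and outside 458.5 and 308.5 Gh UMIs with 463 and 318.5 Prl UMIs. Barcodes that met the gene conditions and failed Gh over Prl had median depths of 10292 and 11767.5 UMIs in the libraries labelled 22-month, and 71.4% and 74.2% of them were called doublets.

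Doublets, droplets that held more than 1 nucleus, were called from simulated doublets with Scrublet. In the labelled 22-month male and female libraries 26.2% and 21.1% of somatotropes were called, against 21.4% and 24.9% in those labelled 5-month. At least 2 of the 8 lactotrope genes had a UMI in 26.7% and 25.6% of somatotropes labelled 22-month, against 13.4% and 22.1% of those labelled 5-month. All 8 genes were detected in each library's somatotropes, and their summed level was 668 and 568 CPM in the libraries labelled 22-month, against 306 and 504 CPM in those labelled 5-month. With called doublets left out the sums fell to 238 and 128 CPM in the libraries labelled 22-month, against 60.4 and 106 CPM in those labelled 5-month, while lactotropes themselves held 2749 and 3077 CPM in the libraries labelled 22-month. Values below are with doublets kept, as the rule has it, unless they are said to be without them.

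Clustering of the somatotropes within each library labelled 22-month separated nuclei that differed in this respect. In the library labelled 22-month males 3 clusters of 392, 385 and 268 nuclei had at most 0.510% called doublets and 145367 to 178266 CPM of Gh. Cluster 1 was led by Dpp10, an auxiliary subunit of Kv4 potassium channels (699.6 CPM, against 212 CPM in the other somatotropes), and by the mucin Muc19. Cluster 2 was led by the dynein Dnah8, with the muscle filament protein Neb, and cluster 3 by Bmerb1, the EGF receptor substrate Eps8, Ddc (aromatic amino acid decarboxylase) and the metalloprotease Adam12. The other 4 clusters held 210, 102, 67 and 53 nuclei with 83.8% to 97% called doublets. Their leading genes included the lactotrope genes Angpt1, Impg1 and Syndig1 in cluster 4, the gonadotrope genes Gnrhr and Foxp2 and the corticotrope and melanotrope gene Oacyl in cluster 5, Slc39a12 and Aldh1a1 in cluster 6, and the endothelial and macrophage genes Emcn, Ptprc and C1qa in cluster 7.

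In the library labelled 22-month females 3 clusters of 351, 338 and 201 nuclei had 0.855%, 0% and 4.48% called doublets. Cluster 1 was led by Agbl1, Muc19 and the glucocorticoid-induced kinase Sgk1, and cluster 2 by Rhoj, the cytokine receptor Il31ra, Neb and the calcium sensor of exocytosis Doc2b. Cluster 3 was led by Pde1a, Cdh11, Arhgap6 and the neuropeptide gene Gal, and held 84685 CPM of Gh, below the 131569 and 135602 CPM of clusters 1 and 2. The remaining 190 and 40 nuclei had 96.8% and 100% called doublets and were led by Epha6 and the lactotrope genes Edil3 and Angpt1 in cluster 4 and by Nrg3, Rbpms and Oacyl in cluster 5. Across the libraries, all 10 leading genes of cluster 4 of the library labelled 22-month males were over 2 times higher in cluster 4 of that labelled 22-month females than in the other somatotropes there. For the clusters with few doublets in the library labelled males, the best match was its cluster 2 in cluster 2 of that labelled females, with 4 of 10 genes. Muc19 and Gm32913 led cluster 1 of both libraries. A cluster's leading genes come from the clustering itself and were not tested.

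**Figure D2:**
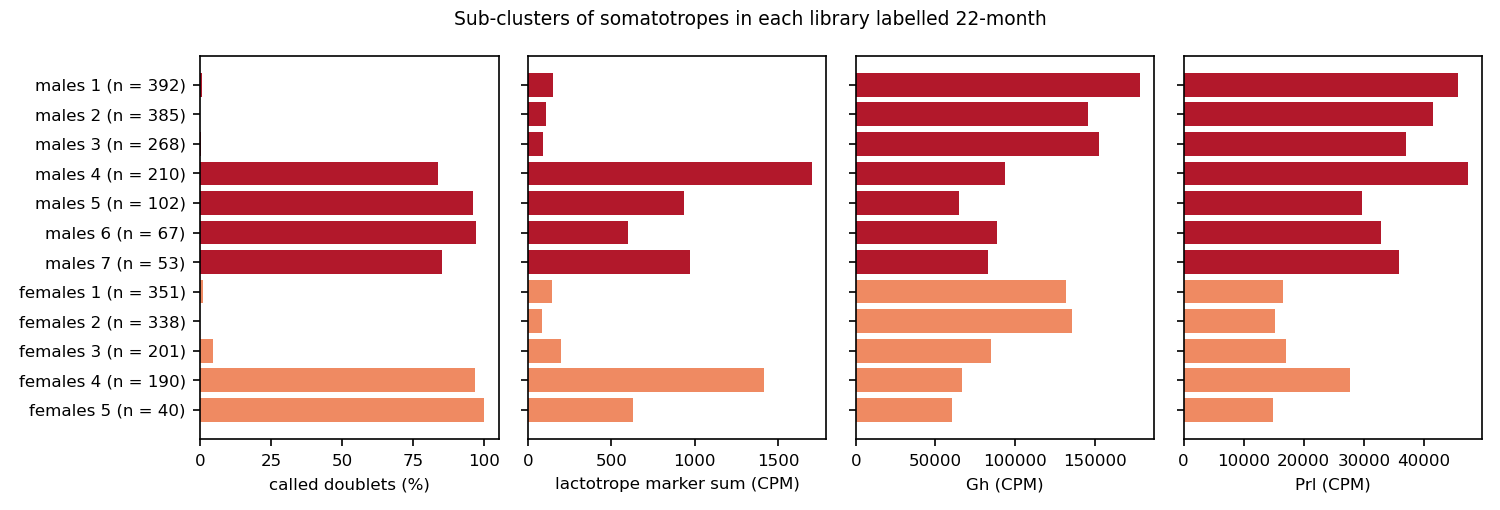
Bars give, for each sub-cluster of somatotropes in the libraries labelled 22-month males (dark red) and 22-month females (orange), the percentage called doublets, the summed CPM of the 8 lactotrope genes without Prl, and the CPM of Gh and of Prl. Clusters 4 to 7 of the first library and 4 and 5 of the second have 83.8% to 100% called doublets and lower Gh than the leading clusters.

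Compared with lactotropes of the same libraries labelled 22-month, the genes higher in somatotropes included the adenylyl cyclase Adcy2, the kainate receptor subunit Grik4, the cytokine receptors Il1r1 and Il31ra and the glucocorticoid receptor Nr3c1. The genes lower in somatotropes included 24 of 39 adhesion and synaptic genes and 14 of 27 glutamate and GABA receptor genes. Of 17174 genes tested, 4234 passed (24.7%), 2252 higher in somatotropes (13.1%) and 1982 lower (11.5%), at an adjusted p under 0.05 in edgeR's quasi-likelihood test with the library as a block. Genes of both rules were left out, but the classes were chosen on transcripts of the same nuclei, so the test describes how these classes differ. Without called doublets 2469 genes were higher (15.9%) and 2270 lower (14.6%), 30.6% in all, and 2119 and 1820 of the first calls recurred. Without the library labelled 22-month females 1878 genes passed in all, and without that labelled 22-month males 2569.

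Adcy2, which makes cyclic AMP, reached 387 and 315 CPM in somatotropes of the labelled 22-month male and female libraries, against 17.8 and 11.4 CPM in their lactotropes (log2 fold 4.68 ± 0.11 SE, adjusted p 5.8e-07). Grik4, a kainate glutamate receptor subunit, had 105 and 115 CPM in somatotropes, against 5.26 and 4.16 CPM in lactotropes (log2 fold 4.62 ± 0.13). Il1r1, the interleukin-1 receptor, had 149.8 and 214 CPM in somatotropes, against 4.35 and 9.96 CPM in lactotropes. In each of these genes the lower somatotrope value lay far above the higher lactotrope value, though named genes were required not to overlap. Il31ra, a receptor chain for interleukin-31, had 32.4 and 80.6 CPM in somatotropes, against 1.58 and 1.60 CPM in lactotropes. The adhesion G protein-coupled receptor Adgrf1 had the largest log2 fold of those named, 5.72 ± 0.26, from 13.8 and 25.4 CPM in somatotropes against 0.243 and 0.534 CPM in lactotropes. Doc2b, Ugt8a (galactosylceramide synthesis), Muc19, Galnt16 (O-glycosylation) and Mettl21e completed the 10 largest, with log2 folds of 4.71 to 5.58. All 10 passed with any 1 library left out, which was a condition for naming them.

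The 10 largest differences in the lactotropes' favour had log2 folds of -2.55 to -2.25. Epha6, an ephrin receptor, had 186 and 228 CPM in somatotropes of the libraries labelled 22-month, against 819 and 1391 CPM in lactotropes (log2 fold -2.29 ± 0.16). Without called doublets its log2 fold was -5.33, and that of Sncaip, a synuclein-binding protein, was -5.63 in place of -2.25. Gad2, which makes GABA, stood at 2.51 and 3.66 CPM in somatotropes, against 13.8 and 22.7 CPM in lactotropes. Il1rapl2, Klhl1, Cdh9, Galnt5, Hapln1, Cntnap4 and the receptor kinase Alk were the others. Without called doublets each of the 10 had a larger difference, with log2 folds of -5.63 to -3.83.

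Among receptors and signalling of the growth hormone axis, 5 of 16 genes tested were higher in somatotropes and 2 lower, with a median log2 fold of 0.21 against -0.02 over all genes. Of all genes tested, 13.1% were higher and 11.5% lower. The somatostatin receptor Sstr5 was at 1.93 and 2.17 CPM in somatotropes, against 0.304 and 0.458 CPM in lactotropes (log2 fold 2.50 ± 0.37, adjusted p 0.00139 by edgeR). Sstr1 ran the other way, at 3.38 and 1.83 CPM in somatotropes against 9.39 and 6.94 CPM in lactotropes. Sstr2, the main somatostatin receptor known in mouse somatotropes, had 2.03 and 1.71 CPM in somatotropes, against 1.06 and 0.878 CPM in lactotropes, and did not pass (adjusted p 0.0558). Insr, Vipr2, Jak2 and the feedback gene Cish were higher and Stat5a lower. Igf1, the growth factor that growth hormone induces, had 11.9 and 18.4 CPM in somatotropes, against 2.83 and 2.25 CPM in lactotropes.

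In the cyclic AMP pathway 7 of 27 genes were higher and 5 lower, where 13.1% of all genes were higher and 11.5% lower. Besides Adcy2, the phosphodiesterase Pde8b had 68.9 and 137 CPM in somatotropes, against 5.72 and 11.6 CPM in lactotropes, and the kinase regulatory subunit Prkar2b had 109 and 121 CPM in somatotropes, against 25.5 and 27.6 CPM in lactotropes. Pde4b, Pde4d and the inhibitory subunit Gnai1 were lower in somatotropes. Of 23 lineage transcription factors 3 were higher, Neurod4, Foxo1 and Rxrg, and 10 lower. Tbx19 and Pax7, markers of corticotropes and melanotropes, were among the 10. The 6 markers of those cells summed to 9197 and 3459 CPM in lactotropes of the libraries labelled 22-month. In somatotropes they summed to 4845 and 1570 CPM. The part of such transcripts in the lower genes was not tested. Foxo1 had 205 and 189 CPM in somatotropes, against 83.1 and 94.2 CPM in lactotropes. Pou1f1, the shared lineage factor, had 392 and 375 CPM in somatotropes, against 549 and 536 CPM in lactotropes (log2 fold -0.42 ± 0.08).

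Steroid and thyroid hormone genes showed 9 of 18 higher and 4 lower, where 13.1% of all genes were higher and 11.5% lower. Their median log2 fold was 0.62. The glucocorticoid receptor Nr3c1 had 176 and 257 CPM in somatotropes, against 26.4 and 29.8 CPM in lactotropes (log2 fold 3.00 ± 0.11). Its known target Fkbp5 had 179 and 217 CPM in somatotropes, against 30.1 and 35.3 CPM in lactotropes, and Zbtb16, Sgk1, Tsc22d3 and Klf9 were higher too. The mineralocorticoid receptor Nr3c2 and the retinoid receptors Rxrg and Rarb were higher, while the lower genes included the progesterone receptor Pgr, the thyroid hormone receptor Thrb and the retinoid receptor Rara. Esr1, the estrogen receptor, did not pass, at 593 and 909.8 CPM in somatotropes against 785 and 1021 CPM in lactotropes.

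**Figure D3:**
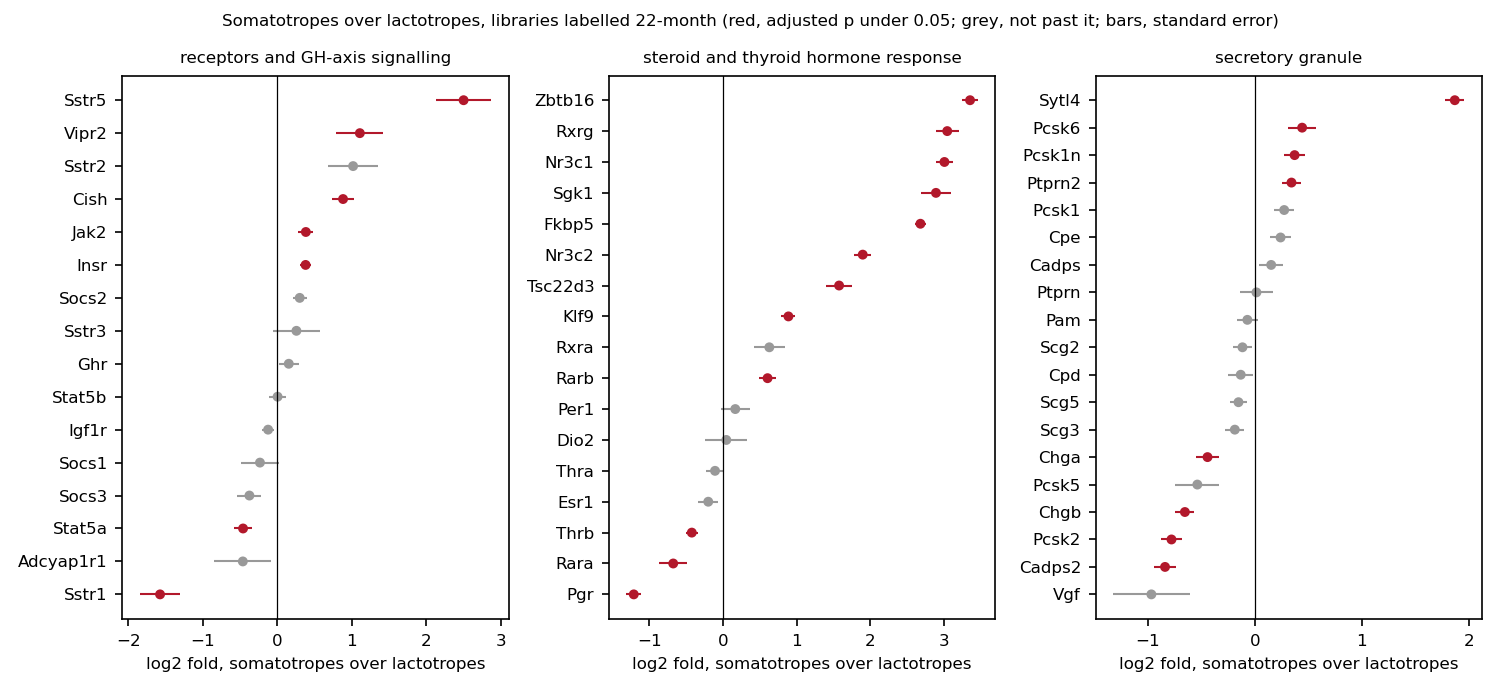
Points give the log2 fold of somatotropes over lactotropes in the libraries labelled 22-month, with standard error bars, for tested genes of 3 lists; red passed an adjusted p of 0.05 and grey did not. Zbtb16, Rxrg and Nr3c1 lie near 3 in the steroid panel and Pgr below -1, while the granule genes lie within 1 of 0 apart from Sytl4.

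Secretory machinery was divided. Of 19 granule genes 4 were higher and 4 lower. The granule tether Sytl4 had 82.2 and 89.6 CPM in somatotropes, against 25.2 and 24.5 CPM in lactotropes. The granins Chga and Chgb and the protease Pcsk2, also a corticotrope and melanotrope marker, were lower. Of 29 exocytosis genes 8 were higher and 8 lower. Over all genes 13.1% were higher and 11.5% lower. Of 21 genes of protein folding in the endoplasmic reticulum 6 were higher, among them Hsp90b1 and Creb3l2, and 1, Creb3l1, lower. Without called doublets 11 of the 21 were higher, where 15.9% of all genes were, and 1 lower. Creb3l1 had 15 and 19.2 CPM in somatotropes, against 42.2 and 59.0 CPM in lactotropes.

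Potassium channel genes were divided evenly, 8 higher and 8 lower of 27, where 13.1% of all genes were higher and 11.5% lower. Kcnmb2, an accessory subunit of the large-conductance calcium-activated channel, had 967 and 983 CPM in somatotropes, against 66.1 and 33.9 CPM in lactotropes (log2 fold 4.44 ± 0.23), and its partners Kcnmb4 and Kcnma1 were higher as well. Of 27 calcium, sodium and related channel genes 9 were higher and 10 lower. All 3 ryanodine receptors, the release channels of internal calcium stores, were higher, Ryr1 at 10.3 and 8.23 CPM in somatotropes against 1.06 and 1.30 CPM in lactotropes. The L-type subunits differed, Cacna1d being higher in somatotropes and Cacna1c lower. Glutamate and GABA receptor genes were mostly lower, 14 of 27 against 6 higher, the higher ones including Gria1, Grik4, Grm3 and Gabra4. Adhesion and synaptic genes were lower in 24 of 39 and higher in 6 (median log2 fold -0.73). Without called doublets 18 of the 27 receptor genes were lower (median log2 fold -2.09) and 25 of the 39 adhesion genes (median -1.56). The guidance receptor Unc5c was among the 6, at 534 and 712 CPM in somatotropes against 129 and 247 CPM in lactotropes.

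Imprinted genes were higher in 8 of 18 and lower in 1, Mest, where 13.1% of all genes were higher and 11.5% lower. Grb10, an adaptor that restrains insulin and IGF receptor signalling, had 156 and 186 CPM in somatotropes, against 11.5 and 18.6 CPM in lactotropes, and Zim1 had 104 and 118 CPM in somatotropes, against 13.7 and 9.27 CPM in lactotropes. Interferon-response genes were higher in 5 of 19 and class I antigen presentation genes in 5 of 12, with log2 folds from 0.46 (Tapbp) to 1.01 (Psmb9) among these 10, and Nlrc5 was lower. Of 31 ribosomal protein genes 5 were higher with doublets kept, near the share of all genes. Without called doublets 16 were higher, where 15.9% of all genes were. In the other lists described for the class comparison, the counts of higher and of lower genes moved by at most 1 without called doublets.

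Somatotropes of the libraries labelled 22-month were then set against those labelled 5-month. Most of the genes that passed were higher in the libraries labelled 22-month and were at a still higher level in lactotropes. How common a higher level in lactotropes is among all genes tested was not counted. Of 16179 genes tested with edgeR's quasi-likelihood test on 2 libraries against 2, with no term for the sex label, 105 passed (0.649%), 86 higher (0.532%) and 19 lower (0.117%). The same test called 51 of 14222 genes without called doublets (0.359%), 42 higher (0.295%) and 9 lower (0.0633%), of which 33 and 7 were among the first calls. Leaving out the library labelled 5-month females gave 355 calls and leaving out that labelled 5-month males 161. In all 105 genes the values of the labelled ages did not overlap. A call on 2 libraries against 2 nearly requires this, so it adds no support, and the share among all genes tested was not counted. Of the 86 higher genes, 59 were below the lactotropes' level in both libraries labelled 22-month, and 17 of those also passed without doublets. A further 21 were above it, and 13 of those also passed without doublets. By a rule that needs more Prl than Gh UMIs, lactotropes numbered 6123 and 4271 in the libraries labelled 22-month. In those labelled 5-month they numbered 794 and 602. Leaving out doublets or nuclei with lactotrope UMIs does not remove free RNA, and its part in these differences was not tested.

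**Figure D4:**
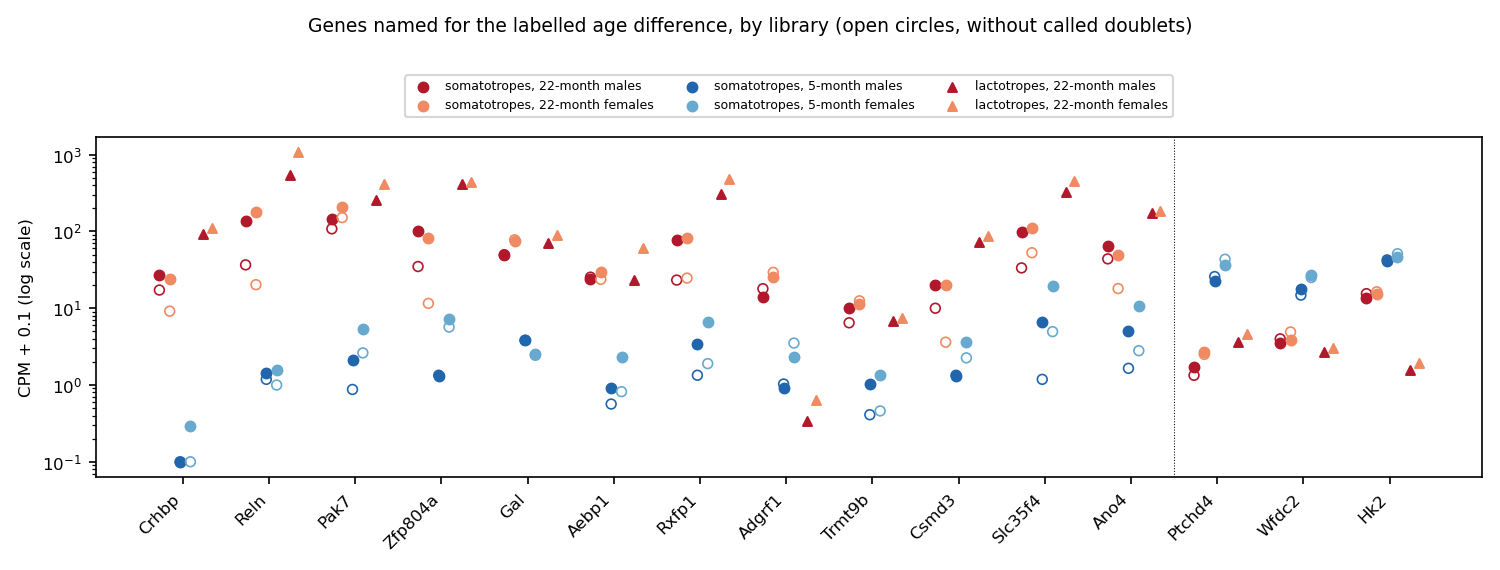
Each gene named for the labelled age difference is shown by its CPM plus 0.1 (log scale) in somatotropes of the 4 libraries as labelled (filled circles), in somatotropes without called doublets (open circles) and in lactotropes of the libraries labelled 22-month (triangles). For Reln, Zfp804a and Csmd3 the open circles lie well below the filled ones, and for Gal, Adgrf1, Ptchd4 and Hk2 they lie close to them.

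Reln (ENSMUSG00000042453, chr5:21884454-22344702, mm10), a secreted glycoprotein known from neuronal migration, had 136 and 179.6 CPM in somatotropes of the labelled 22-month male and female libraries, against 1.32 and 1.45 CPM in those labelled 5-month. Its log2 fold was 6.85 ± 0.25 (adjusted p 9.4e-05, edgeR). Lactotropes of the libraries labelled 22-month held 549.6 and 1066 CPM of it, and somatotropes without called doublets 36.5 and 20.1 CPM, against 1.08 and 0.898 CPM in those labelled 5-month. Reln passed without doublets (log2 fold 4.84, adjusted p 0.013 by edgeR). It also passed in somatotropes with no UMI of the 8 lactotrope genes (log2 fold 3.93, adjusted p 0.0153 by edgeR). Neither step removes free RNA. Crhbp, which binds corticotropin-releasing hormone, had 26.8 and 23.9 CPM in somatotropes labelled 22-month, against 0 and 0.193 CPM in those labelled 5-month, where 2 UMIs were counted. Its ratio of pooled counts was 264, with a counting interval of 72.8 to 2189. Without doublets Crhbp had 17.1 and 9.05 CPM in somatotropes labelled 22-month, against 0 and 0 CPM in those labelled 5-month, and passed (adjusted p 0.0362 by edgeR). Zfp804a, Csmd3, Slc35f4 and Ano4 also had lactotrope levels 2 or more times those of somatotropes. Without doublets Zfp804a and Csmd3 had smaller log2 folds, 2.85 in place of 4.52 and 2.03 in place of 3.11, and did not pass. Slc35f4 and Ano4 had larger ones, 3.93 in place of 3.06 (adjusted p 0.0471 by edgeR) and 3.92 in place of 2.92 (adjusted p 0.0531).

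Gal, Pak7, Aebp1 and Rxfp1 also passed without doublets, Gal at nearly the same level. The neuropeptide gene Gal, a known estrogen-induced gene of the rodent pituitary, had 48.9 and 75.1 CPM in somatotropes of the libraries labelled 22-month, against 3.77 and 2.41 CPM in those labelled 5-month (log2 fold 4.36 ± 0.32, adjusted p 0.00306 by edgeR). Without doublets it had 49.6 and 77.6 CPM in the libraries labelled 22-month, against 3.72 and 2.34 CPM in those labelled 5-month. The kinase gene Pak7 had 144 and 206 CPM in somatotropes labelled 22-month, against 2.04 and 5.31 CPM in those labelled 5-month, and 108 and 151 CPM without doublets in the libraries labelled 22-month. Aebp1, a secreted carboxypeptidase-like protein, had 23.6 and 29.3 CPM in the libraries labelled 22-month, against 0.815 and 2.22 CPM in those labelled 5-month. The relaxin receptor Rxfp1 had 76.8 and 81.8 CPM in the libraries labelled 22-month, against 3.36 and 6.56 CPM in those labelled 5-month. Without doublets it was at 23.1 and 24.6 CPM in the libraries labelled 22-month and still passed (adjusted p 0.00509 by edgeR). Lactotropes of the libraries labelled 22-month held 71.3 and 89.4 CPM of Gal, 255 and 413 CPM of Pak7 and 304 and 479 CPM of Rxfp1. In somatotropes with no UMI of the 8 lactotrope genes, a subset chosen after seeing the data, Gal, Pak7, Aebp1 and Rxfp1 passed with log2 folds of 4.74, 5.58, 4.89 and 3.28 (adjusted p 0.00398 to 0.0337 by edgeR).

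Adgrf1 (ENSMUSG00000041293, chr17:43270329-43324737) was nearly absent from lactotropes, at 0.243 and 0.534 CPM in the libraries labelled 22-month. In somatotropes it had 13.8 and 25.4 CPM in the libraries labelled 22-month, against 0.815 and 2.22 CPM in those labelled 5-month (log2 fold 3.71 ± 0.48, adjusted p 0.0309, and 3.50 with 0.0597 without doublets, by edgeR). Me3, the mitochondrial malic enzyme, had 146 and 198 CPM in somatotropes labelled 22-month, against 23.1 and 40.1 CPM in those labelled 5-month, and 32.2 and 39.1 CPM in lactotropes of the libraries labelled 22-month. Rims4, of the presynaptic active zone family, had 18.3 and 27 CPM in somatotropes labelled 22-month, against 3.56 and 3.38 CPM in those labelled 5-month. Adam12 had 51.4 and 67.1 CPM in somatotropes labelled 22-month, against 10.2 and 13.6 CPM in those labelled 5-month. Me3, Rims4 and Adam12 passed without doublets too, with adjusted p of 0.0352, 0.0152 and 0.0333 by edgeR; these 3 fall below the 12 largest and were chosen after their values were seen. Trmt9b, a tRNA methyltransferase relative, had 9.94 and 11.2 CPM in the libraries labelled 22-month, against 0.917 and 1.25 CPM in those labelled 5-month.

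On the X chromosome 8 of 518 genes tested were higher, Xist and Tsix among them, and 1 lower. Of all genes tested 0.532% were higher and 0.117% lower. Dach2, a transcription cofactor (ENSMUSG00000025592, chrX:113297510-113836386), had 493 and 578 CPM in somatotropes labelled 22-month, against 160.4 and 182 CPM in those labelled 5-month (log2 fold 1.69 ± 0.16, adjusted p 0.00993 by edgeR). Its lactotrope values were 361 and 337 CPM in the libraries labelled 22-month, against 449 and 421 CPM in those labelled 5-month, and the labelled age ratio differed between the classes (interaction 1.92 on the log2 scale, adjusted p 0.000571 by edgeR). Kdm6a, a histone demethylase known to escape X inactivation, had 204 and 235 CPM in somatotropes labelled 22-month, against 85.5 and 95.1 CPM in those labelled 5-month. Ddx3x, another such gene, had 54.6 and 68.4 CPM in somatotropes labelled 22-month, against 27.3 and 28.5 CPM in those labelled 5-month, a log2 fold of 1.18, and of 1.16 without doublets, where it missed the threshold (adjusted p 0.0695). It also missed it without the library labelled 22-month females (0.0976, edgeR). With autosomal genes alone in the fit 67 genes were higher and 10 lower. These X-linked genes were named after their values were seen.

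On the lower side 3 genes met every condition set for naming. Ptchd4 (ENSMUSG00000042256, chr17:42315947-42505077), a patched-domain protein, had 1.64 and 2.63 CPM in somatotropes labelled 22-month, against 22.4 and 36.1 CPM in those labelled 5-month (log2 fold -3.74 ± 0.33, adjusted p 0.00759, and 0.0152 without doublets, by edgeR). Lactotropes held 3.53 and 4.50 CPM in the libraries labelled 22-month, against 1.60 and 2.93 CPM in those labelled 5-month, and the ratio differed between the classes (interaction -4.65, adjusted p 0.000521 by edgeR). The glycolytic enzyme Hk2 (hexokinase 2) had 13.5 and 15.4 CPM in somatotropes labelled 22-month, against 40.6 and 46.8 CPM in those labelled 5-month, and 1.49 and 1.83 CPM in lactotropes labelled 22-month. The secreted inhibitor-domain protein Wfdc2 had 3.47 and 3.77 CPM in somatotropes labelled 22-month, against 17.4 and 27.1 CPM in those labelled 5-month, a log2 fold of -2.57. Without doublets the log2 fold was -2.14 and missed the threshold (adjusted p 0.0708, edgeR). Fshb, the gonadotropin subunit that gonadotropes make, was also lower, at 27.6 and 19.1 CPM in somatotropes labelled 22-month, against 69.0 and 88.4 CPM in those labelled 5-month. Lactotropes had 24.4 and 35.4 CPM of Fshb in the libraries labelled 22-month, against 86.0 and 69.6 CPM in those labelled 5-month, in nuclei that do not make it, and without doublets the log2 fold of somatotropes was -1.37, in place of -1.71, and missed the threshold (adjusted p 0.104 by edgeR).

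By gene list, 13 of 465 distinct listed genes tested passed, where 0.649% of all genes did. Adhesion and synaptic genes gave 5 higher and 1 lower of 39, with a median log2 fold of 0.58 against -0.02 over all genes. The higher ones were Nrxn3, Cntnap2, Csmd1, Csmd3 and Nkain2, which lactotropes of the libraries labelled 22-month held at higher levels, and none of these 5 passed without doublets, with adjusted p of 0.0599 to 0.497 by edgeR. Their log2 folds without doublets were 1.88 for Nrxn3, 1.67 for Cntnap2, 0.65 for Csmd1, 2.03 for Csmd3 and 2.97 for Nkain2, in place of 2.10, 2.22, 1.76, 3.11 and 2.49. Without doublets 1 adhesion gene was higher, Erbb4, a neuregulin receptor (log2 fold 2.94, adjusted p 0.0098, against 1.61 and 0.105 with doublets kept, by edgeR). Opcml ran the other way, at 22.1 and 16.5 CPM in somatotropes labelled 22-month, against 56.4 and 54.0 CPM in those labelled 5-month. Estrogen-response genes gave 2 of 10, Gal and Pgr, with a median log2 fold of 0.76. Pgr, the progesterone receptor, had 32.7 and 48.3 CPM in somatotropes labelled 22-month, against 13.1 and 16.1 CPM in those labelled 5-month, a log2 fold of 1.51, and of 1.40 without doublets, where it missed the threshold (adjusted p 0.16). Greb1, another estrogen-induced gene, had 212 and 335 CPM in the libraries labelled 22-month, against 26.2 and 82.2 CPM in those labelled 5-month, and did not pass (adjusted p 0.105 by edgeR).

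Of the growth hormone axis Stat5a passed, 1 of 16, at 39.2 and 52.2 CPM in somatotropes labelled 22-month, against 17.7 and 19.4 CPM in those labelled 5-month. Its log2 fold was 1.34, and 1.10 without doublets, where it missed the threshold (adjusted p 0.117), as it did without the library labelled 22-month females (0.089). Ryr3 was lower, at 25.5 and 18.1 CPM in somatotropes labelled 22-month, against 59.6 and 75.5 CPM in those labelled 5-month, and so was the clock gene Per3, at 102 and 113 CPM in somatotropes labelled 22-month, against 216 and 219 CPM in those labelled 5-month. Ryr3 missed the threshold without the library labelled 22-month females (adjusted p 0.0556), and Per3 passed with only 1 of the 4 libraries left out. Zim1 had 104 and 118 CPM in somatotropes labelled 22-month, against 53.1 and 60.3 CPM in those labelled 5-month, and the cell division gene Diaph3 had 98.2 and 104 CPM in somatotropes labelled 22-month, against 50.5 and 59.0 CPM in those labelled 5-month. Neither passed when the library labelled 22-month females was left out, with adjusted p of 0.109 and 0.133. Without doublets the log2 folds of Ryr3, Per3, Zim1 and Diaph3 were -1.55, -0.99, 1.12 and 0.95, in place of -1.59, -0.98, 1.01 and 0.93, and none passed (adjusted p 0.0597 to 0.0926 by edgeR). Of the calcium, sodium and related channel genes Trpm3 was higher without doublets (log2 fold 1.81, adjusted p 0.0362) and did not pass with them kept (log2 fold 1.01, adjusted p 0.2).

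In 15 of the 23 lists no gene passed in edgeR, among them cyclic AMP signalling, lineage factors, granule, exocytosis, protein folding, potassium channels, immediate early genes, interferon response, class I antigen presentation, cell cycle inhibitors and p53 targets, and ribosomal proteins. Of their 313 distinct genes 71 had an unadjusted p under 0.05 in edgeR, where 15.7% of all genes did, and 16 passed in DESeq2, where 2.35% did. Immediate early genes had a median log2 fold of -0.76 over 15 genes and glutamate and GABA receptor genes one of 0.42 over 27. Without doublets these medians were -0.30 over 13 genes and 0.076 over 21. A p that misses the threshold does not show that these genes were alike.

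Whether the labelled age difference was the same in somatotropes and lactotropes was tested as an interaction. Of 17174 genes 229 had a higher labelled 22-month over 5-month ratio in somatotropes than in lactotropes (1.33%) and 263 a lower one (1.53%), together 2.86%. Without called doublets 280 (1.81%) and 325 (2.1%) did, together 3.9%. Of the 105 genes that passed in somatotropes, 103 were tested here and 27 passed. Leaving out the library labelled 22-month females, 5-month females or 5-month males gave 259, 234 or 168 calls. Without the library labelled 5-month females 122 genes had the higher ratio and 112 the lower one.

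Nnat, an imprinted gene for a small membrane protein of the secretory pathway, had 2053 and 2121 CPM in somatotropes labelled 22-month, against 4178 and 4189.8 CPM in those labelled 5-month. In lactotropes it had 796 and 899.8 CPM in the libraries labelled 22-month, against 12274 and 8846 CPM in those labelled 5-month. The interaction was 2.58 ± 0.16 on the log2 scale (adjusted p 0.000264, edgeR). Both classes were thus lower in the libraries labelled 22-month, lactotropes by more. The bradykinin receptor Bdkrb2 and Fyb2 behaved alike, Bdkrb2 with 14.7 and 29.4 CPM in somatotropes labelled 22-month, against 32.8 and 43.8 CPM in those labelled 5-month, and 1.85 and 4.35 CPM in lactotropes labelled 22-month, against 38.4 and 36.6 CPM in those labelled 5-month. Mir670hg, a non-coding host transcript of a microRNA, went opposite ways, with 69.1 and 42.5 CPM in somatotropes labelled 22-month, against 15.2 and 30.6 CPM in those labelled 5-month, and 50.9 and 42.2 CPM in lactotropes labelled 22-month, against 113 and 141 CPM in those labelled 5-month.

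On the negative side, the neurotrophin receptor Ntrk3 had 79.1 and 173 CPM in somatotropes labelled 22-month, against 183 and 175 CPM in those labelled 5-month. In lactotropes Ntrk3 had 47.0 and 105 CPM in the libraries labelled 22-month, against 3.20 and 5.50 CPM in those labelled 5-month (interaction -4.70 ± 0.21, adjusted p 6.11e-05 by edgeR). The semaphorin co-receptor Plxna4 had 132 and 230.4 CPM in somatotropes labelled 22-month, against 94.7 and 150 CPM in those labelled 5-month. Its lactotrope values were 127 and 249 CPM in the libraries labelled 22-month, against 4.80 and 4.40 CPM in those labelled 5-month. Somatotropes thus held both genes in every library, and lactotropes mainly in the libraries labelled 22-month. Glucocorticoid targets Fkbp5, Zbtb16 and Sgk1 were the 3 of 18 steroid and thyroid genes with a higher ratio in somatotropes. Fkbp5 had 179 and 217 CPM in somatotropes labelled 22-month, against 278 and 297 CPM in those labelled 5-month, and 30.1 and 35.3 CPM in lactotropes labelled 22-month, against 120.2 and 115 CPM in those labelled 5-month (interaction 1.27, adjusted p 0.00102). In the granule list Chgb, Scg2, Scg5 and Cadps had a higher ratio in somatotropes and Pcsk2, Sytl4 and Ptprn a lower one, 7 of 19. Pcsk2 is also a corticotrope and melanotrope marker. Adhesion genes gave 15 lower and 1 higher of 39, and 10 lower and 2 higher without doublets. Over all genes tested 1.33% had a higher ratio and 1.53% a lower one. Without doublets the shares were 1.81% and 2.1%.

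The somatotropes of the libraries labelled 22-month males and 22-month females were compared as single libraries, with no replicate and no test. Both carried Xist and no Eif2s3y UMI, so what separates them besides the label cannot be told here, and a difference between them is not shown to be one of sex. A gene counted as different at a ratio of 2 with 20 UMIs in the higher library and a counting interval that left out 1. Of 16179 genes 412 were higher in the library labelled males (2.55%) and 295 in that labelled females (1.82%), and 293 and 258 without called doublets. Several of the largest differences in favour of the library labelled males were at far lower levels without doublets. Lgr5, a receptor of stem cells in several tissues, had 4.82 CPM in the library labelled 22-month males and 0.686 CPM in that labelled 22-month females, but 0.177 and 0 CPM without doublets, and lactotropes held 8.63 and 2.44 CPM. Crhr1, the receptor for corticotropin-releasing hormone and a corticotrope marker, had 4.05 CPM in the library labelled males and 0.571 CPM in that labelled females, with 1.06 and 0.554 CPM without doublets. Igf2bp2, an RNA-binding protein, kept its difference, at 14.7 CPM in the library labelled males and 1.49 CPM in that labelled females (ratio 9.88, interval 5.61 to 19), and 12 and 1.29 CPM without doublets.

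In favour of the library labelled females, the extracellular matrix protein Spon1 had 8.97 CPM in the library labelled 22-month males and 122 CPM in that labelled 22-month females, an interval of 10.9 to 16.9 times. Without doublets it had 9.36 and 148 CPM, and the labelled 5-month male and female libraries held 1.43 and 3.18 CPM. The sodium-activated potassium channel Kcnt2 had 15.3 CPM in the library labelled 22-month males and 119 CPM in that labelled females, and the intermediate filament gene Nes 4.15 CPM in that labelled males and 33.3 CPM in that labelled females. Adamts19, a secreted metalloprotease, had 7.72 CPM in the library labelled males and 71.9 CPM in that labelled females, with 21.1 and 223 CPM in the lactotropes of the same libraries. Kcnt2, Nes, Spon1 and Adamts19 each kept a like difference without doublets, with log2 folds of -2.84, -2.81, -3.91 and -3.14. Ebf3 did not, at 0.386 and 7.31 CPM with doublets kept and 0.530 and 1.11 CPM without. Klk1b26, of a family of near-identical kallikrein genes and so uncertain, was higher in the library labelled males. The macrophage gene F13a1 was higher in that labelled females. Both stood against 0 UMIs, and a floor of 3 counts gave ratios of 7.04 and 9.86. Their counting intervals began lower, at 5.31 and 7.44 times. Without doublets F13a1 had 0.739 CPM in the library labelled females, in place of 2.86 CPM. Spo11, Bean1, Cit and Slc22a21 in the library labelled males and Igkc and Mir9-3hg in that labelled females made up the rest, with 21 to 74 UMIs in the higher library.

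**Figure D5:**
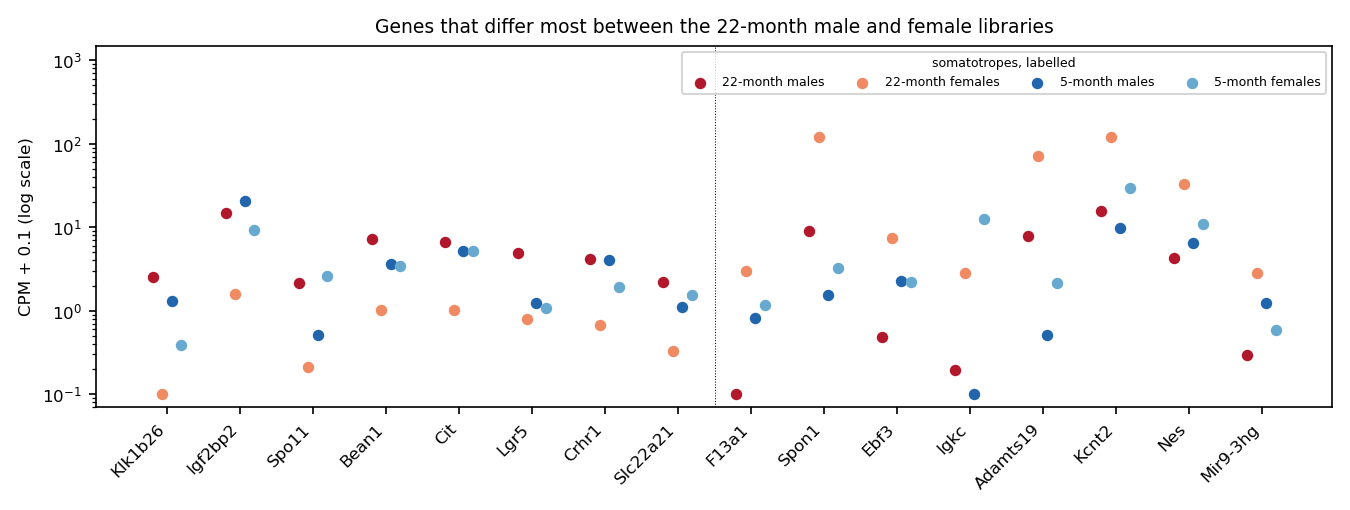
CPM plus 0.1 (log scale) in somatotropes of the 4 libraries as labelled, for the 8 genes with the largest ratio in favour of the library labelled 22-month males (left of the dotted line) and the 8 in favour of that labelled 22-month females (right). Spon1 reaches 122 CPM in the library labelled 22-month females, against 8.97, 1.43 and 3.18 CPM in the other 3.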

How the data were processed

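Nuclei of frozen mouse pituitaries were profiled with 10x 3' chemistry, and the authors deposited UMI counts per gene and barcode made with Cell Ranger, version 7.0.1 per the file headers and with mm10 per the submitters' processing notes. The counts cover 32285 genes. From them barcodes were filtered, somatotropes and lactotropes picked by the stated rules, doublets called with Scrublet (scanpy 1.11.5, expected rate 0.08, 1 threshold of 0.167 for all libraries), and counts summed per library and class. Sums were tested with edgeR 4.0.16 (TMM, low-count filter, quasi-likelihood, Benjamini-Hochberg over all genes tested), with DESeq2 1.42.0 as an alternative. The age fit has 2 libraries per labelled age and 2 residual degrees of freedom. The class and interaction fit used 8 sums with the library as a block. Genes of the rules were left out of the tests. CPM are counts over the class's summed UMIs. Each group is 1 library of 3 pooled glands, so p-values measure the spread between libraries only. Sub-clusters used Leiden clustering at resolution 0.5. Gene positions are from GENCODE M21.

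The members and gene lists were chosen with earlier results of these data known. Named genes exclude rule and hormone genes, Xist, Tsix, Y-linked genes and clone names. For the labelled age 12 and for the class 10 per direction were taken by log2 fold, among genes that passed the threshold, passed with any 1 library left out, did not overlap between groups and averaged at least 10 CPM in the higher group. For the interaction 6, and between the libraries labelled 22-month 8, per direction were taken among all that passed. Listed genes and the rule's genes were named besides. Values of a few named or listed genes are not reported here, though counts include them. The scripts were tested on simulated data. Alternatives changed the tool, scaling, low-count filter, rule, doublets, depth and libraries.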

Additional observations from a re-analysis of the deposited data

Results flagged for a closer look

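Of the interaction genes with the largest differences of labelled age ratio between somatotropes and lactotropes, 11 are given here, since the difference itself was tested with edgeR and passed. A positive value means a higher ratio of labelled 22-month over labelled 5-month in somatotropes than in lactotropes. Bdkrb2 had 2.79, Mir670hg 2.72, Nnat 2.58 and Fyb2 2.55 on the log2 scale, and these 4 passed with any 1 library left out. Uchl1os, an antisense transcript whose reads cannot be told apart from its partner's where strand is not used, had 2.48 and missed the threshold with 1 of the 4 libraries left out. Sgpp2, a sphingosine-1-phosphate phosphatase, had 2.46 and missed it with 2.

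Plxna4 had -4.77 and Ntrk3 -4.70, and both passed with any 1 library left out. Ebf3 had -8.83 and Adcy8 -8.71, with lactotropes of both libraries labelled 5-month at 0 counts, so these fitted values depend on the prior count and are no bound. Capn8, given below, had 0.320 and 0 CPM in the same lactotropes, so its value rests on counts near the floor too. Lactotropes of the libraries labelled 22-month held 56.5 and 173 CPM of Capn8. Ebf3 missed the threshold without called doublets (adjusted p 0.0734 by edgeR), where the other 10 passed. It passed with only 1 of the 4 libraries left out, at 0.386 and 7.31 CPM in somatotropes labelled 22-month males and females, against 2.14 and 2.12 CPM in those labelled 5-month. Capn8, a calpain protease, had -5.87 and passed with 2, at 20 and 101 CPM in somatotropes labelled 22-month, against 7.13 and 2.03 CPM in those labelled 5-month.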

How the results depend on the processing

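For the labelled age, 105 genes passed in somatotropes. The count was 380 with DESeq2, 325 with the sex label as a term, 1083 with no low-count filter, 57 with Gh at least 2 times Prl, 51 without called doublets and 46 in somatotropes with no UMI of the 8 lactotrope genes, an alternative chosen after seeing the data. Leaving out 1 library gave 80 to 355. Of 36 genes named or listed, 18 missed the threshold without called doublets. For the class comparison 4234 genes passed, 2247 with DESeq2 and 1878 to 4312 with 1 library left out. The 20 named genes passed under all 14 alternatives, though passing with any 1 library left out was a condition for naming. For the interaction 492 passed, 1062 with no low-count filter and 168 to 503 with 1 library left out. With all other nuclei in place of lactotropes 287 were higher and 120 lower. Between the libraries labelled 22-month 707 genes differed, and 518 to 765 under the alternatives. Of the 105 genes called for the labelled age, 91 were tested with no lactotrope UMI and 2 changed sign there, Rps6ka2 (log2 fold 1.16 as reported and -0.42) and Phldb2 (1.39 and -0.014). None of the 100 tested without called doublets did. The interaction, with 229 higher and 263 lower as reported, had 122 higher and 112 lower without the library labelled 5-month females.

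Shares are given for the labelled 22-month libraries and then for the labelled 5-month ones, males before females in each. Without called doublets they were 10.9%, 12.7%, 18.8% and 16.4%, with at least 4 of the 9 genes 7.71%, 9.29%, 12.1% and 11.5%, with no lactotrope UMI 5.59%, 6.48%, 14.6% and 11.1%, and after thinning 4.35%, 4.80%, 7.40% and 6.13%. With Gh at least 2 times Prl those labelled 22-month were 8.94% and 12.1%, and with no such condition 14.4% and 15.3%. With at least 1000 genes those labelled 5-month were 22.0% and 19.8%. Individual mice could not be paired because the labels give no replicate numbers and each group is 1 library. The class and interaction fits had the library as a block, and the fit with the sex label as a term is the one of 325 calls above.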
